A study of Mus musculus with 14 samples.

Results

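The comparison described here set the livers of 3 Ythdf1-/- mice against those of 3 WT mice, all given saline, and used 6 of the 14 liver RNA-seq libraries that were analysed. Members were taken by their labels for genotype and treatment. Mice were C57BL/6 animals of 8 weeks, saline was given by the intravenous route, and livers were taken after 8 h. Knockout mice (KO) are labelled as lacking Ythdf1, and the study describes a whole-body deletion made with CRISPR/Cas9. An effect of hepatocytes therefore cannot be told apart from an effect of other cells. The other 8 libraries came from 4 WT and 4 KO mice given 8 mg/kg concanavalin A (ConA), a plant lectin that activates T cells and injures the liver, and they served as a second, independent set of mice of both genotypes. The question was which transcripts differed between the genotypes before any hepatitis was induced.

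YTHDF1 is a cytoplasmic protein that reads N6-methyladenosine (m6A), a methyl mark that a writer complex built on METTL3 and METTL14 places on mRNA and that FTO and ALKBH5 can remove. It binds marked transcripts and is best known for promoting their translation, while YTHDF2 is best known for speeding their decay. In the liver, hepatocytes make most plasma proteins, among them the protease inhibitors of the serpin family, and they also make bile acids and clear foreign compounds.

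Expression was measured as TPM (the number of transcripts of a gene among 1000000 transcripts of a library), which holds no read number. The depth of each library is therefore unknown, and error was judged from the variation among mice alone. Genes were compared on log2(TPM + 1), a scale that understates the change of genes with low TPM, and a gene was called when the Benjamini-Hochberg adjusted p of limma was under 0.05. WT saline replicates 2 and 3 were nearly the same, with a median absolute difference of 0.0781 on the log2 scale, whereas the remaining 17 replicate pairs gave 0.124 to 0.398. They were therefore averaged and counted as 1 sample, and the comparison rests on 2 WT values against 3 KO values. All 6 libraries had the profile of liver, with 71714 to 87030.1 TPM of Alb (albumin) in the WT group and 62303 to 76489 in the KO group. The Y-linked genes Ddx3y and Eif2s3y did not exceed 0.07 TPM in any of the 14 libraries, although the study's legends describe male mice. Uty, another Y-linked gene, had 1 TPM or more in at least 3 of the 6 saline libraries. Of 34 listed genes that mouse liver makes mainly in males, 27 reached that level. Cyp2u1, Cyp4a12a, Cyp4a12b, Hsd3b5, Ugt2b38, Moxd1 and Cspg5 did not. Over the 27 alone, mean log2(TPM + 1) was 6.10 to 7.12 in WT and 5.18 to 6.36 in KO. The sex of the mice was not tested. Genes that mouse liver makes mainly in females were also high, with 209.9 to 307 TPM of Cyp2b9 in the WT group and 127 to 202 in the KO group. Within WT, replicate 1 stood apart for such genes. Sult2a1, a sulfotransferase made mainly in female liver, had 0.80, 306 and 320.1 TPM in the 3 WT libraries. One more measurement bears on the results below. Over the 55 called genes, WT ConA replicate 4 lay nearer to the WT saline mean for 42, while WT ConA replicates 1, 2 and 3 did so for 17, 26 and 19 and the 4 KO ConA libraries for 17 to 19. The same count was not made over all tested genes. Of the 30 rises and 18 falls tested after ConA, 11 and 0 lacked overlap in the same direction (6.37% and 4.11% of all tested genes). For many called genes the genotype label thus did not separate the ConA mice in the way it separated the saline mice. Genotype cannot be told apart from whatever else set the WT saline mice apart.

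The targeted gene and the other m6A regulators came first. Ythdf1 had 12.03, 13.9 and 13.3 TPM in WT and 20.8, 18.4 and 18.6 TPM in KO livers. Each KO value lay above each WT value, and the log2 fold change was 0.55 ± 0.11 (SE), with a limma adjusted p of 0.0805 that did not pass. With the 3 WT libraries kept separate the adjusted p was 0.0181. The TPM of a whole gene does not show whether a part of it was deleted, so these values, which were higher in the livers labelled KO, do not check that label. Wtap, a subunit of the writer complex, was the other regulator without overlap, with 18.7, 16.9 and 16.8 TPM in WT and 13.8, 16.5 and 15.7 TPM in KO livers (log2 fold change of -0.20, adjusted p 0.306). The remaining 8 overlapped between the genotypes. Mettl3 and Mettl14, the core of the writer, had log2 fold changes of -0.07 and -0.13, and the erasers Fto and Alkbh5 had -0.03 and -0.06. The readers Ythdf2 (0.09), Ythdf3 (0.04), Ythdc1 (-0.20) and Ythdc2 (0.03) were also near 0 on the log2 scale. Of the 10 regulators 0 were called by limma and 1, Ythdf1, had an unadjusted p under 0.05, where 2756 of all 10459 tested genes (26.4%) did.

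**Figure D1:**
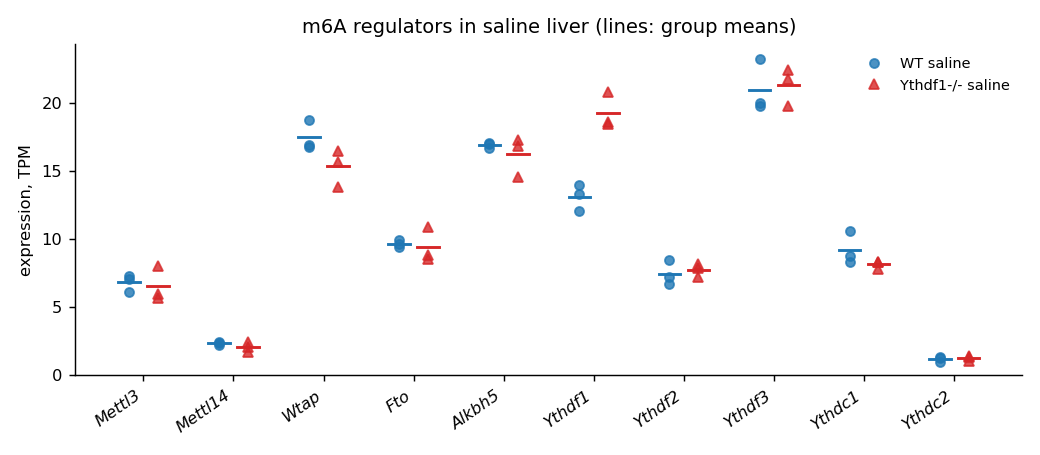
Expression in TPM (vertical axis) of the 10 m6A regulators in 3 WT saline (circles) and 3 KO saline (triangles) livers, with lines for group means. The 3 KO values of Ythdf1 (18.4 to 20.8) sit above the 3 WT values (12.03 to 13.9), and 8 of the other regulators overlap.

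Over all 10459 tested genes, 55 were called (0.526%), 31 higher in KO (0.296%) and 24 lower (0.229%), and each of the 55 had KO values that did not overlap the WT values. Among all tested genes, 13.0% had 3 KO values above the 3 WT values and 29.2% had 3 KO values below them. The median log2 fold change of all tested genes was -0.10 and became 0.00 when each library was rescaled by its median ratio to the others. Rescaling shifted the calls to 45 higher and 20 lower, and a correction for GC content and transcript length to 35 higher and 16 lower. With 3 separate WT libraries 2009 genes were called (19.2%), 659 higher and 1350 lower. That count treats the near-identical pair as 2 mice. Without WT saline replicate 1, whose sex-biased genes stood apart, 66 genes were called, of which 32 were among the 55. Of the 31 genes that rose, 5 had a log2 fold change under 1, and of the 24 that fell, 3 had one above -1. In all 15 other fits in which they were tested, 9 genes remained called, namely Sult2a6, Gm41844, Camk2b, Sco2, Gng11, D17H6S56E-5 and Gm46620, which rose, and Serpina3c and Ren1, which fell.

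The fall with the smallest p was in a serpin gene of chromosome 12, and 4 of its paralogs fell as well. Serpina3c, one of the mouse relatives of alpha-1-antichymotrypsin, an inhibitor of serine proteases, had 78.8, 67.9 and 65.1 TPM in WT and 0.47, 0.50 and 0.30 TPM in KO livers. The gene fell from a level shared by the 3 WT livers to near 0 in all 3 KO livers, with a log2 fold change of -5.69 ± 0.13 (limma adjusted p 2.53e-05). Serpina3n, which is secreted in the acute phase, had 346, 435 and 412 TPM in WT and 141, 179 and 172 TPM in KO, with a smaller log2 fold change of -1.22 ± 0.16 (adjusted p 0.0376). The stretches of 250 bases that lie before the start sites of these genes are nearly alike, and they are shown because genes with such similar upstream DNA had log2 fold changes of -5.69 and -1.22. In a global alignment of 253 columns, 229 bases (90.5%) were identical. Both are given 5′ to 3′ on the strand of the gene, from RefSeq on GRCm38.p6, with capitals for the 21 bases in each that do not match in the alignment. The Serpina3c stretch lies at chr12:104153873-104154122 on the minus strand and the Serpina3n stretch at chr12:104406458-104406707 on the plus strand.
Serpina3c: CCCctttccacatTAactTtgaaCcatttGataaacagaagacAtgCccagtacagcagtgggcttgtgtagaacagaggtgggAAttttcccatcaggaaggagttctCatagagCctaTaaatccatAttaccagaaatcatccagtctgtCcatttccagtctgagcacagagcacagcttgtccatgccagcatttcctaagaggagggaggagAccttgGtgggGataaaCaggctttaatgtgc
Serpina3n: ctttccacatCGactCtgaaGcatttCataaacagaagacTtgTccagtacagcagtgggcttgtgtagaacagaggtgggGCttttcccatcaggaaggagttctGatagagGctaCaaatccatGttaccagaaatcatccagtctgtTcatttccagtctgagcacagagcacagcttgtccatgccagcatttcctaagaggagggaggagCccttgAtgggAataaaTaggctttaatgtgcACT

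Reads were 50 bases long, and 95.7% of the 50-base stretches of the Serpina3c transcripts and 93.1% of those of Serpina3n occur in no other gene. Serpina3i had 5.38, 3.97 and 3.82 TPM in WT and 0.10, 0.16 and 0.24 TPM in KO livers (log2 fold change of -2.26 ± 0.15, adjusted p 0.0033). Serpina3m had 477, 546 and 538 TPM in WT and 165, 169 and 222 TPM in KO (-1.46 ± 0.16, 0.0214). For both, every KO liver lay below every WT liver. Serpina1d, a paralog of alpha-1-antitrypsin, which blocks neutrophil elastase, had 6611, 6895 and 6709 TPM in WT and 3098, 3208 and 3642 TPM in KO (-1.02 ± 0.13, 0.0409), but only 49.1% of its 50-base stretches are its own. The other tested members of the 2 families were not called. Serpina3f had 2.85, 4.07 and 4.76 TPM in WT and 1.01, 1.25 and 1.06 in KO (log2 fold change -1.12, adjusted p 0.0614), and Serpina3g had 4.92, 5.76 and 4.91 in WT and 4.59, 2.96 and 3.0 in KO (-0.46, 0.168). Serpina1b and Serpina1c had log2 fold changes of -0.18 and -0.08, Serpina3k had 0.12, and Serpina1a had 2011, 1959.6 and 1954 TPM in WT against 3449.8, 3436 and 3296 in KO (0.77, adjusted p 0.0614). Serpina1e, a paralog made mainly in male liver, had 474, 215 and 207 TPM in WT and 52.4, 7.18 and 28.2 in KO, without overlap but with a wide spread (-3.76 ± 0.76, 0.0805).

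**Figure D2:**
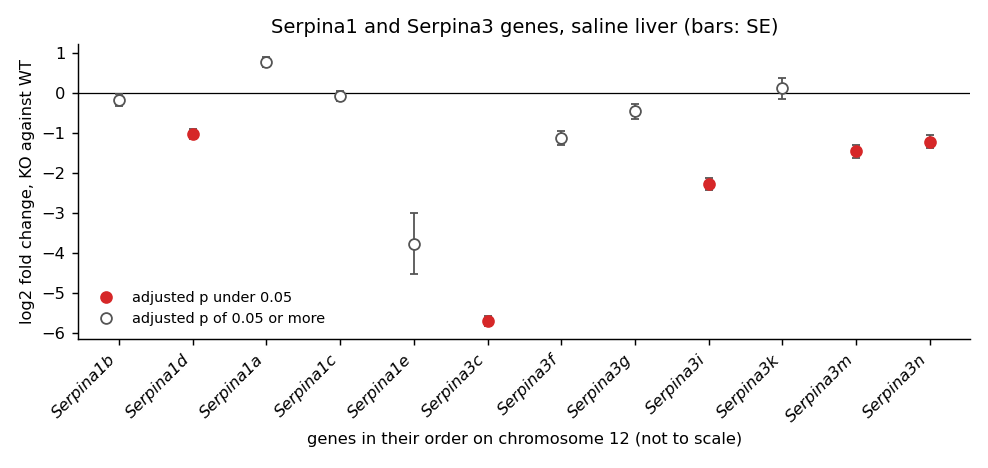
Log2 fold change of KO against WT saline liver (vertical axis, bars for SE) of the 12 tested Serpina1 and Serpina3 paralogs, in their order on chromosome 12 and not to scale. Filled points are called, and they run from -5.69 for Serpina3c to -1.02 for Serpina1d, while Serpina1a lies at 0.77.

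Outside the serpins, the proteases Ren1 and Ctse and the secreted enzyme Enpp2 fell. Ren1 encodes renin, the protease that starts the angiotensin cascade and is known mainly from kidney. It had 6.22, 12 and 12.3 TPM in WT livers and was listed at 0 in all 3 KO livers (limma adjusted p 0.00391). Ctse, the aspartic protease cathepsin E, had 15.7, 31.02 and 30.8 TPM in WT and 1.17, 0.11 and 0.29 TPM in KO, with a log2 fold change of -3.98 ± 0.36 (adjusted p 0.00856). Enpp2, which makes the lipid mediator lysophosphatidic acid as autotaxin, had 25.3, 23.1 and 25.3 TPM in WT and 10.9, 10.5 and 9.20 in KO (-1.20 ± 0.11, 0.00907). For these 3 genes the WT and KO livers did not overlap, and WT replicate 1 was below the other WT replicates for Ren1 and Ctse.

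Among regulators, Egr1 is a zinc finger transcription factor that growth factors and stress induce within minutes. It had 25.1, 16.6 and 18.2 TPM in WT and 2.89, 2.71 and 2.76 TPM in KO, so that the KO livers were nearly identical to each other and far below WT (-2.53 ± 0.16, adjusted p 0.0026). Foxa3, a forkhead factor of hepatocytes, had 33.8, 44.1 and 40.3 TPM in WT and 18.1, 18.5 and 16.9 in KO (-1.04 ± 0.13, 0.032). Eif4e3, a member of the cap-binding translation factor family, spanned 5.81 to 7.40 TPM in the WT group and 1.92 to 2.29 in the KO group (-1.26, 0.0166). Luc7l3, a splicing factor, spanned 26.01 to 27.6 TPM in the WT group and 14.7 to 16.3 in the KO group (-0.75, 0.046).

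Cyp7a1 and Tpmt were the metabolic enzymes among the 12 largest falls. Cyp7a1, the rate-limiting enzyme of bile acid synthesis, had 66.8, 70.7 and 72.5 TPM in WT and 26.3, 21.5 and 17.7 TPM in KO livers. The WT livers lay within a narrow band and the KO livers below it (-1.64 ± 0.17, limma adjusted p 0.0143). Tpmt, which methylates thiopurine drugs, had 85.4, 67.3 and 69.3 TPM in WT and 19.2, 22.9 and 18.7 TPM in KO (-1.87 ± 0.15, 0.00478). Rad51b, a DNA repair gene, had 22.2, 26.9 and 31.01 TPM in WT and 4.53, 4.09 and 6.34 TPM in KO (-2.15 ± 0.19, 0.00799). None of these 3 genes overlapped between the genotypes. Prelid2 spanned 8.34 to 10.98 TPM in the WT group and 1.44 to 2.56 in the KO group (-1.91, 0.00907). Amn, a partner of the vitamin B12 receptor cubilin, spanned 2.67 to 3.59 TPM in the WT group and 0.23 to 0.79 in the KO group (-1.42, 0.0396). The pseudogene Tma7-ps spanned 17.2 to 20.9 TPM in the WT group and 0 to 2.09 in the KO group (-3.30, 0.046). The other genes that fell were Ttc39a, Gm12447, Lyrm7, Rnaset2b, Taf1d and Gm52433, with log2 fold changes from -1.35 to -0.83.

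On the side of the rises, Pttg1 had the smallest p. It encodes securin, which holds separase inactive until the chromosomes part in mitosis, and it had 11.6, 10.6 and 10.1 TPM in WT and 108, 118 and 107 TPM in KO livers. The groups were far apart (3.22 ± 0.11, limma adjusted p 0.000198). Of the 12 tested cell cycle genes, a list that does not include it, 0 were called by limma, 2 had an unadjusted p under 0.05 and 0 were higher in KO without overlap. Over all tested genes these shares were 0.526%, 26.4% and 13.0%. Camk2b, a subunit of a calcium-dependent kinase, had 0.14, 0.14 and 0.06 TPM in WT and 6.47, 9.62 and 6.24 TPM in KO (2.89 ± 0.19, 0.0026). Pik3c3, the lipid kinase Vps34 of autophagy and endosomes, had 8.78, 8.11 and 8.40 TPM in WT and 82.2, 59.95 and 50.1 TPM in KO (2.74 ± 0.20, 0.00391). In all 3 genes the lowest KO liver was above the highest WT liver.

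Sult2a4 and Sult2a6, cytosolic sulfotransferases of the family that conjugates hydroxysteroids and bile acids, were at or near 0 in WT livers and rose in KO livers. Sult2a6 was listed at 0 in the 3 WT libraries and had 19.9, 57.9 and 24.6 TPM in KO (limma adjusted p 0.00521). Sult2a4 had 0, 0 and 0.36 TPM in WT and 17.5, 59.4 and 24.02 TPM in KO (4.81 ± 0.46, 0.0102). KO replicate 2 was the highest for both, and the values of the 2 genes were close in each KO liver. Reads may have been split between these paralogs, which was not tested. The upstream stretches of these genes are shown because both genes rose, and they were less alike than those of the serpins above, with 183 identical bases in 290 alignment columns (63.1%), where Serpina3i and Sult2a4, which are not related, gave 52.4%. They are written as before, with capitals for the 67 bases in each without a match. Sult2a4 is at chr7:13989589-13989838 and Sult2a6 at chr7:14254871-14255120, both on the minus strand.
Sult2a4: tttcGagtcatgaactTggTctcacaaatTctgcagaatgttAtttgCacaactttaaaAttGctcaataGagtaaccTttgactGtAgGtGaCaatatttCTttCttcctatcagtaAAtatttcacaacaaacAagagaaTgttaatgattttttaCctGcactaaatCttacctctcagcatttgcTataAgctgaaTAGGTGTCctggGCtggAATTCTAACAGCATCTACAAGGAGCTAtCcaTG
Sult2a6: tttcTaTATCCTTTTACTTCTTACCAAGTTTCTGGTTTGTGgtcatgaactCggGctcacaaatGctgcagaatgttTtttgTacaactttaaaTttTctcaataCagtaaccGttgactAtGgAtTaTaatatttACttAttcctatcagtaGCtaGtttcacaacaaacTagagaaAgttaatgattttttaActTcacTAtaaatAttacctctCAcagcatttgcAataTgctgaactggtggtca

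Other members of the Sult2a family, examined after the values of these 2 were seen, differed among themselves. Sult2a5 had 0.26, 5.26 and 4.87 TPM in WT and 25.7, 131 and 30.3 in KO (log2 fold change 4.12, adjusted p 0.0815), and Sult2a7 had 8.34, 13.1 and 14.5 in WT and 27.7, 88.9 and 82.3 in KO (2.35, 0.0826), neither past the threshold. Sult2a8 had 632, 507 and 549.6 TPM in WT and 375, 263 and 345 in KO (-0.83, 0.0836). Sult2a1 overlapped between the genotypes, since WT replicate 1 had 0.80 TPM and the other WT libraries had values within the KO range of 127 to 939 TPM.

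Of the 31 genes that rose, 14 carry only a Gm or LOC symbol, the names of predicted genes without a known function, as did 2 of the 24 that fell. Gm52197 had 0.32, 0.52 and 1.11 TPM in WT and 124, 68.7 and 113 TPM in KO, the largest fitted rise (6.02 ± 0.27, limma adjusted p 0.000791). Gm52787 spanned 2.39 to 3.26 TPM in the WT group and 62.3 to 157 in the KO group (4.56). LOC115488029 spanned 3.74 to 7.53 TPM in the WT group and 83.6 to 170.2 in the KO group (4.15), and Gm51918 had 0.30 to 0.81 in WT and 25.3 to 51.7 in KO (4.59). The remaining predicted genes among the 12 largest rises were Gm46156, Gm41844, Gm51753, Gm42048 and Gm40814, with log2 fold changes from 4.11 to 2.99. KO replicate 1 was the highest KO liver for Gm52197, Gm52787, LOC115488029, Gm51918, Gm46156, Gm41844, Gm51753 and Gm40814.

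**Figure D3:**
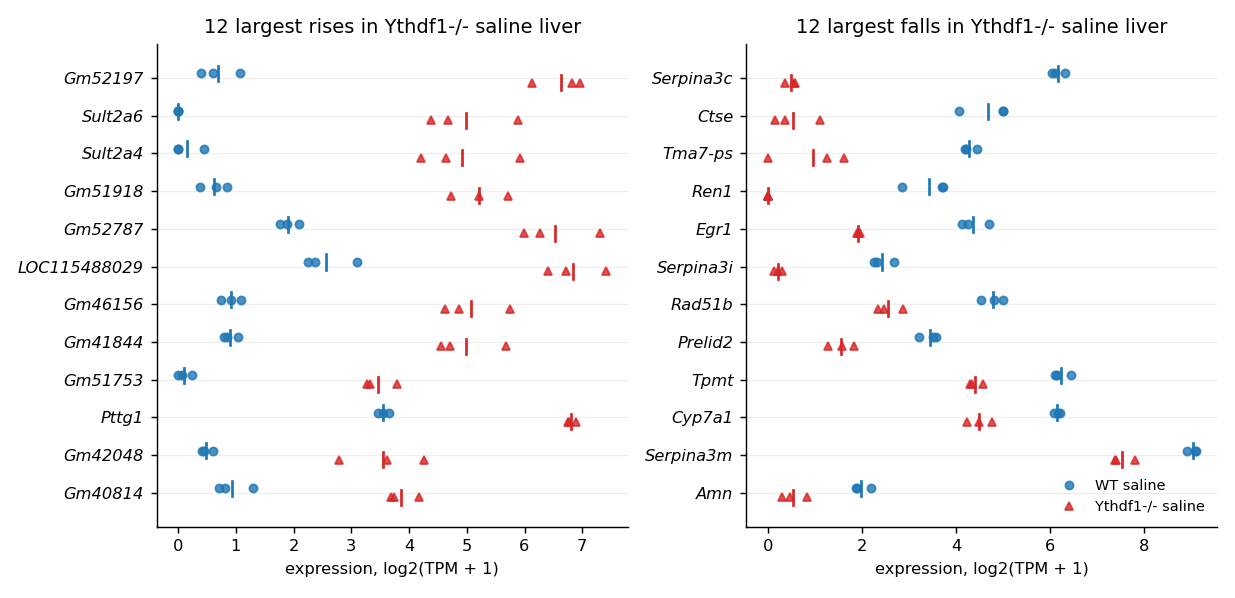
Expression as log2(TPM + 1) (horizontal axes) of the 12 genes with the largest rise and the 12 with the largest fall, with each of 3 WT (circles) and 3 KO (triangles) saline livers and lines for the means. The genes were chosen among those without overlap, so no KO point overlaps a WT point. Pttg1 and Serpina3c show tight groups far apart (3.22 and -5.69).

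Outside the 12 largest rises, 19 further genes rose, among them the copper carriers Atox1 and Sco2. Atox1, a chaperone that hands copper to the export pumps, had 217, 188 and 169 TPM in WT and 609.6, 659.6 and 516 TPM in KO (1.58 ± 0.15, limma adjusted p 0.0104). Sco2, which delivers copper to cytochrome c oxidase, had 27.8, 26.1 and 25.9 TPM in WT and 74.8, 76.7 and 70.3 in KO (1.42 ± 0.10, 0.00387). Its annotation shares bases with Tymp, which had 19.2, 19.97 and 16.04 TPM in WT and 35.8, 40.98 and 57.6 TPM in KO, and only 12.3% of its 50-base stretches are found in no other gene, so the reads of these genes may have been split between them. Gng11, a G protein subunit, had 4.71, 5.18 and 4.49 TPM in WT and 13.6, 14.4 and 14.04 in KO (1.38 ± 0.10, 0.0033), and Eaf2, a partner of the elongation factor ELL, had 13.4, 11.96 and 11.2 in WT and 43.7, 41.1 and 29.5 in KO (1.52 ± 0.18, 0.0306). D17H6S56E-5 spanned 1.86 to 2.42 TPM in the WT group and 14.97 to 26.02 in the KO group (2.70, 0.00496). The acyl-CoA thioesterase Acot11 (1.26), the LIM protein Crip2 (0.89), the actin-binding Tagln2 (0.89), the actin acetyltransferase Naa80 (0.78), Hdhd3 (0.93), Tceanc2 (2.01) and Tmem255a (1.69) rose too, and so did Gm40453, Gm42267, Gm44805, Gm46620 and Gm52666. Of the 38 called genes whose transcripts could be compared with all others, 13 had under 90% of 50-base stretches of their own. The lowest besides Sco2 were Gm44805 (6.56%), Rnaset2b (18.2%) and Naa80 (27.3%), whose levels are uncertain for that reason.

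Positions on GRCm38.p6 were found for 50 of the 55 genes. Chromosome 12 held 9 of them among 353 tested genes (2.55%), against 0.526% of all tested genes. Besides Serpina1d, Serpina3c, Serpina3i, Serpina3m and Serpina3n, which lie near each other, these were Rad51b, Amn, Crip2 and LOC115488029. Chromosome 1 held 4 of 589 (0.679%). There Ctse at chr1:131638314-131675507 and Ren1 at chr1:133350674-133360320, which both fell, are close. So are Tma7-ps at chr1:171711070-171711529, which fell, and Tagln2 at chr1:172500246-172507375, which rose. How often other tested genes lie as near to each other was not tested. Chromosome 4 held 8 of 688 (1.16%) and chromosome 11 held 6 of 864 (0.694%), among them Atox1 at chr11:55446637-55461208 and Lyrm7 at chr11:54826866-54860921. Chromosome 2, where Ythdf1 lies at chr2:180904377-180920936, held no called gene. Of the 5 genes listed on each side of Ythdf1, 5 were expressed enough to be tested. Of these, 0 were called by limma and 2 had an unadjusted p under 0.05, against 0.526% and 26.4% of all tested genes. Dido1 had 7.76, 7.91 and 8.04 TPM in WT and 5.19, 5.35 and 4.71 in KO (log2 fold change -0.55, adjusted p 0.0766), Gid8 had 16.5, 19.7 and 18.8 in WT and 12.6, 14.8 and 14.3 in KO (-0.34), and Slc17a9 had 1.82, 1.72 and 2.02 in WT and 2.71, 2.49 and 2.17 in KO (0.28).

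Gene lists were described by counts and medians, beside the median of -0.10 and the shares of 13.0% higher and 29.2% lower without overlap over all tested genes. The other shares over all tested genes to set beside the lists below were 0.526% called by limma and 26.4% with an unadjusted p under 0.05. Acute-phase genes, the plasma proteins that inflammation induces in hepatocytes, had 15 of 28 tested genes lower in KO without overlap and 0 higher, with a median log2 fold change of -0.34. Serpina3n and Serpina3m were the called ones. Saa1, a serum amyloid A, had 369, 151 and 156 TPM in WT and 56.8, 124 and 59.9 TPM in KO, where WT replicate 1 was above all others (-1.65 ± 0.46, adjusted p 0.109). Immediate early and ERK response genes had 10 of 23 lower and 3 higher without overlap (median -0.36), with Egr1 called. Dusp1, a phosphatase that switches off MAP kinases, had 58.7, 68.01 and 70.2 TPM in WT and 28.2, 31 and 19.5 in KO (-1.27 ± 0.21, 0.0655), and Junb, an AP-1 subunit, had 38.2, 26.9 and 28.9 in WT and 17.5, 20.8 and 14.7 in KO (-0.86, 0.0836). The NF-kB targets (3 of 16 higher and 4 lower, median -0.09), the interferon-stimulated genes (1 of 29 higher and 7 lower, -0.06) and the MHC genes (0 of 16 higher and 5 lower, -0.21) had 0 called genes by limma, and 6, 5 and 3 genes with an unadjusted p under 0.05. The NF-kB median changed sign when libraries were rescaled. Irf1, a transcription factor of the interferon response, had 27.9, 24.4 and 22.7 TPM in WT and 15.3, 17.95 and 15.7 in KO (-0.62, 0.0805).

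Among the metabolic lists, the bile acid list had 12 of 26 tested genes lower and 1 higher without overlap (median -0.31), with Cyp7a1 called. Cyp8b1, the sterol 12-alpha-hydroxylase that sets the cholic acid share, had 180.2, 164 and 159.7 TPM in WT and 46.9, 102 and 79.03 in KO (-1.23 ± 0.30, adjusted p 0.0971), and Cyp7b1 of the alternative pathway had 23.3, 13.8 and 15.6 in WT and 8.24, 7.95 and 9.44 in KO (-1.03, 0.0764). Xenobiotic genes had 15 of 40 lower and 5 higher (-0.40). Of them 0 were called by limma and 19 had an unadjusted p under 0.05, against 0.526% and 26.4% of all tested genes. Ugt1a1, which conjugates bilirubin, had 207, 248 and 245 TPM in WT and 79.6, 60.1 and 171 in KO (-1.26, 0.129), and the glutathione transferase Gsta1 had 12.4, 12.1 and 4.26 in WT and 27.9, 65.7 and 79.7 in KO (2.35, 0.0764). Pericentral genes, made around the central vein, had 10 of 23 lower and 0 higher (-0.51), and periportal genes had 4 lower and 7 higher of 23 (0.09), with 0 called by limma and 8 and 6 at an unadjusted p under 0.05. Cyp2e1, a pericentral enzyme that activates toxins, had 7564, 9416 and 9759 TPM in WT and 4005, 5198 and 6115 in KO (-0.76, 0.112). Clock genes had 9 of 19 lower and 0 higher (-0.33), with 0 called and 6 at that level. Wee1, a kinase under clock control, had 4.62, 5.70 and 5.34 TPM in WT and 2.63, 2.76 and 2.38 in KO (-0.75, 0.0637), and the time of day of the harvests is not given in the sources used here.

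Fatty acid oxidation genes had 5 of 32 lower and 1 higher (median -0.24). Of them 0 were called by limma and 5 had an unadjusted p under 0.05, against 0.526% and 26.4% of all tested genes. Ppara, the nuclear receptor that drives this pathway, had 42.3, 51.6 and 52.6 TPM in WT and 20.9, 31.2 and 25.6 in KO (-0.85, adjusted p 0.0836). Fatty acid synthesis genes had 4 of 20 higher and 1 lower (0.09, 0 called, 5 at an unadjusted p under 0.05), and Fasn, the fatty acid synthase, had 48.8, 43.1 and 42.8 TPM in WT and 105, 71.97 and 87.4 in KO (0.91, 0.0764). Oxidative phosphorylation genes stood on the other side of the median of all genes, with 42 of 67 higher and 1 lower without overlap (median 0.26, and 0.13 after the correction for GC content and length). Of them 0 were called by limma and 30 had an unadjusted p under 0.05. Ndufb7, a subunit of complex I, had 378, 388 and 326 TPM in WT and 687, 695 and 512 in KO (0.77, 0.0826). The ribosomal protein genes had 29 of 75 higher and 10 lower (0.13), but that median was -0.07 after the same correction, and 0 were called against 14 at an unadjusted p under 0.05. Cholesterol synthesis (0.09), gluconeogenesis (0.06) and p53 target genes (-0.12) had 0 called genes by limma, and 5, 8 and 7 with an unadjusted p under 0.05. Genes of the growth hormone axis (-0.07), ER stress (-0.11), the proteasome (-0.08) and the cell cycle (-0.09) also had 0 called genes, and 3, 5, 7 and 2 at that level, and all 4 medians changed sign when libraries were rescaled.

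**Figure D4:**
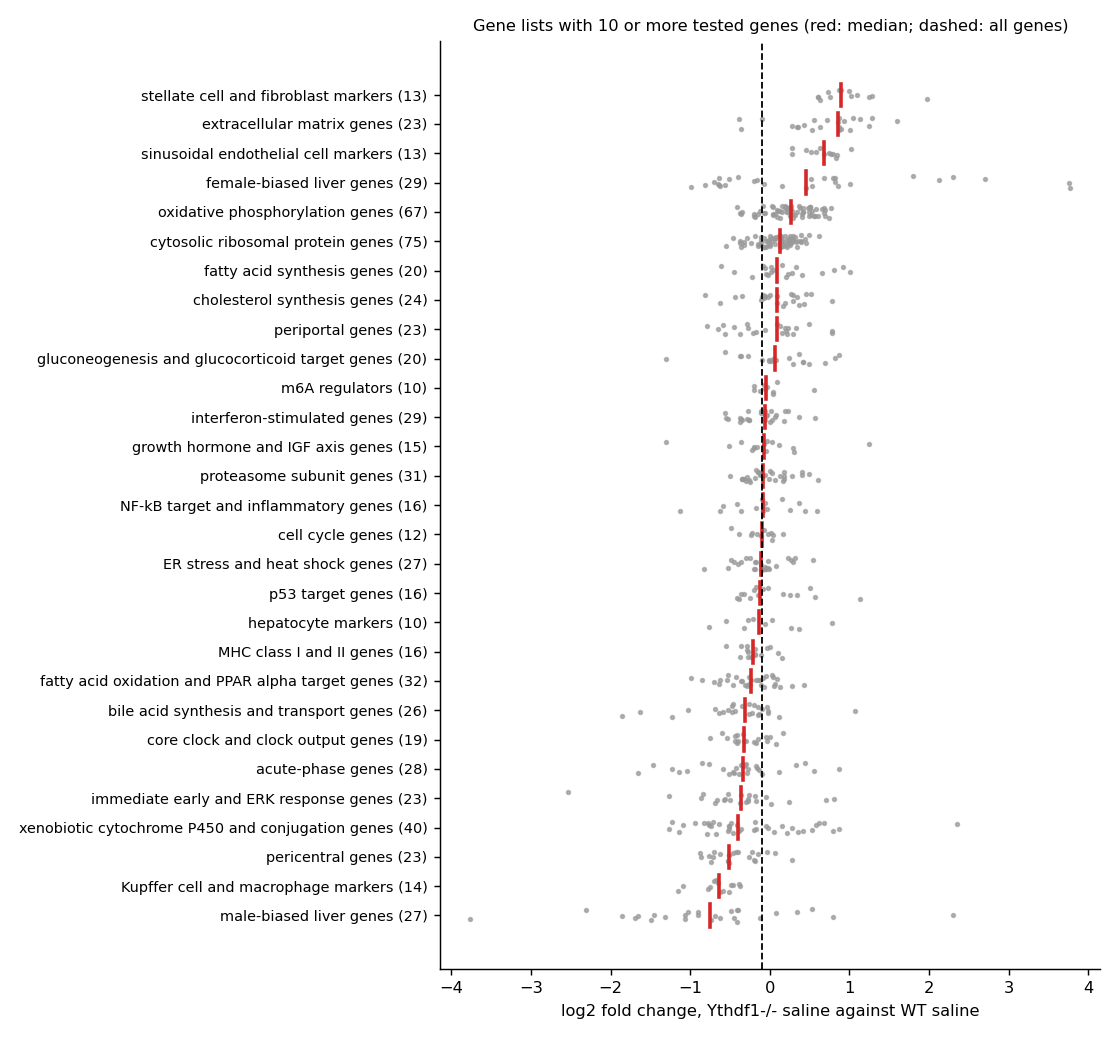
Log2 fold changes of KO against WT saline liver (horizontal axis) for each tested gene (grey points) of the lists with 10 or more tested genes, with the number tested in brackets, red lines for medians and a dashed line for all genes (-0.10). Stellate cell markers (0.89) and extracellular matrix genes (0.85) lie farthest to the right and male-biased genes (-0.75) farthest to the left.

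Markers of other liver cells had 0 called genes in every list with tested genes. Since 0.526% of all tested genes were called, 0 in lists this short says little about the markers. Fewer cells of a type and less RNA per cell cannot be told apart in whole liver. Stellate cell and fibroblast markers had 8 of 13 tested genes higher in KO without overlap and 0 lower (median 0.89), and their mean log2(TPM + 1) was 1.35 to 2.65 in WT and 2.74 to 3.23 in KO. WT replicate 1 lay above both other WT libraries for all 13, of which 0 were called by limma and 8 had an unadjusted p under 0.05. Ecm1, a matrix protein that stellate cells make in liver, had 46.9, 12.6 and 11.9 TPM in WT and 119, 76.6 and 102 in KO (log2 fold change 1.97 ± 0.51, adjusted p 0.0984). Sinusoidal endothelial markers had 10 of 13 higher and 0 lower (0.69, 0 called, 10 at an unadjusted p under 0.05), with list means of 1.66 to 2.01 in WT and 2.20 to 2.75 in KO. Gpr182, a receptor of this endothelium, had 2.40, 1.36 and 1.71 TPM in WT and 5.65, 3.73 and 5.67 in KO (1.02, 0.0805). Cholangiocyte markers had 3 of 6 higher and 0 lower (0.52, 0 called, 3 at an unadjusted p under 0.05), and so had 3 of 4 lymphatic endothelial markers, with 1 lower (0.61). The cholangiocyte list had means of 3.65 to 3.69 in WT and 4.04 to 4.45 in KO. Spp1, osteopontin, had 41.1, 51.98 and 53.1 TPM in WT and 68.6, 77.6 and 75.3 in KO (0.65, 0.0815). Extracellular matrix genes had 3 of 23 higher and 2 lower (0.85, 0 called, 5 at an unadjusted p under 0.05), and Timp3, an inhibitor of metalloproteases, had 3.35, 2.49 and 2.35 TPM in WT and 7.83, 5.60 and 6.94 in KO (1.0, 0.0688).

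Kupffer cell markers had 0 of 14 higher and 2 lower without overlap (median -0.64, 0 called by limma, 3 at an unadjusted p under 0.05), with list means of 3.17 to 3.88 in WT and 2.30 to 3.24 in KO. Cd5l, a secreted macrophage protein, had 38.3, 19.5 and 20.8 TPM in WT and 14.4, 7.91 and 16.9 in KO (-1.10, adjusted p 0.134). Haemoglobin and other red cell genes had 0 of 5 without overlap and a median of 1.14, where KO replicate 1 had 6225 TPM of Hba-a1 and the other 5 libraries had 496 to 1537. Markers of monocytes and dendritic cells, of T and NK cells and of B cells had 0 tested genes, and neutrophil markers had 5 (median -0.25, 0 without overlap). Hepatocyte markers had 2 of 10 higher and 3 lower (-0.13). The part of these markers in the called genes was not tested.

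Genes that mouse liver makes in one sex more than the other spread widely within both genotypes. Male-biased genes had 11 of 27 lower and 1 higher without overlap (median -0.75, 0 called by limma, 11 at an unadjusted p under 0.05), with list means of 6.10 to 7.12 in WT and 5.18 to 6.36 in KO. Their log2 fold changes ran from -3.76 for Serpina1e to 2.30 for Mup17. C9, a terminal complement component that is not on this list, was examined after its values were seen. It had 169.8, 150.4 and 161 TPM in WT and 97.2, 63.6 and 64.1 in KO (-1.14, limma adjusted p 0.0738). Female-biased genes had 4 of 29 higher and 6 lower (0.45, 0 called, 10 at an unadjusted p under 0.05). Hao2, a peroxisomal oxidase, had 3.10, 4.93 and 6.65 TPM in WT and 24.5, 44.6 and 13.9 in KO (2.30, 0.0805), and Cyp3a41a had 3.0, 525 and 543 in WT and 1166, 1091 and 199 in KO, with WT replicate 1 far below the others. Of the genes that differ between C57BL/6 substrains, 4 were tested and none lacked overlap. Nnt, whose loss marks the 6J substrain, spanned 39.1 to 43.9 TPM in the WT group and 42.9 to 54.1 in the KO group, so it was expressed in both.

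The 8 ConA mice shared no library with the saline comparison and showed which differences recurred. After ConA, 45 of 10519 tested genes were called between the genotypes (0.428%), and 8 without WT ConA replicate 4 (0.0761%). Of the 55 genes called in saline liver, 48 were tested after ConA, and 1 was called in the same direction, Gm42267, which was not called without WT ConA replicate 4. Among the 30 of them that rose in saline liver, 24 also had a positive difference after ConA and 11 had 4 KO values above the 4 WT values, where 6.37% of all tested genes did. Among the 18 that fell, 9 had a negative difference and 0 lay below WT without overlap (4.11% of all). Without WT ConA replicate 4 these counts stayed at 11 and 0, beside 8.19% and 6.45% of all genes. Over all 9823 genes tested in both treatments, 39.3% had the same sign.

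WT ConA replicate 4 lay on the side of the WT saline mice for many called genes, although not always at their levels. Pttg1 had 54.3, 61.8, 65.01 and 3.96 TPM in the 4 WT ConA livers and 49.3, 56.3, 58.7 and 59.3 in the 4 KO ConA livers. Serpina3c had 7.34, 9.68, 9.24 and 192 TPM in WT and 17.9, 17.3, 10.2 and 9.47 in KO. In both genes WT ConA replicate 4 lay on the side of the WT saline mice and replicates 1 to 3 lay beside the KO ConA mice. Ren1 had 0.11, 0.11, 0 and 6.17 TPM in WT and 0 to 0.29 in KO mice given ConA, and Rad51b had 1.66, 0.42, 1.35 and 11.4 in WT and 1.19 to 1.70 in KO. Camk2b had 8.11, 2.50, 5.17 and 0.14 TPM in WT ConA and 6.94, 8.23, 7.84 and 11.6 in KO ConA, and Gm52197 had 137, 46.2, 71.2 and 0.35 in WT and 282, 244, 134 and 228 in KO. Among the 48 genes, WT ConA replicate 4 lay outside all 4 KO ConA libraries on the side of the WT saline mice for 33, and replicates 1, 2 and 3 did so for 13, 24 and 17. For the 30 that rose, replicates 1 to 4 lay below all KO ConA libraries for 11, 21, 16 and 24, against 17.3%, 14.3%, 48.2% and 22.2% of all genes. For the 18 that fell they lay above for 2, 3, 1 and 9, against 19.9%, 28.1%, 19.7% and 22.1%. From these libraries, the Ythdf1 genotype and any other property that these mice share cannot be told apart.

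**Figure D5:**
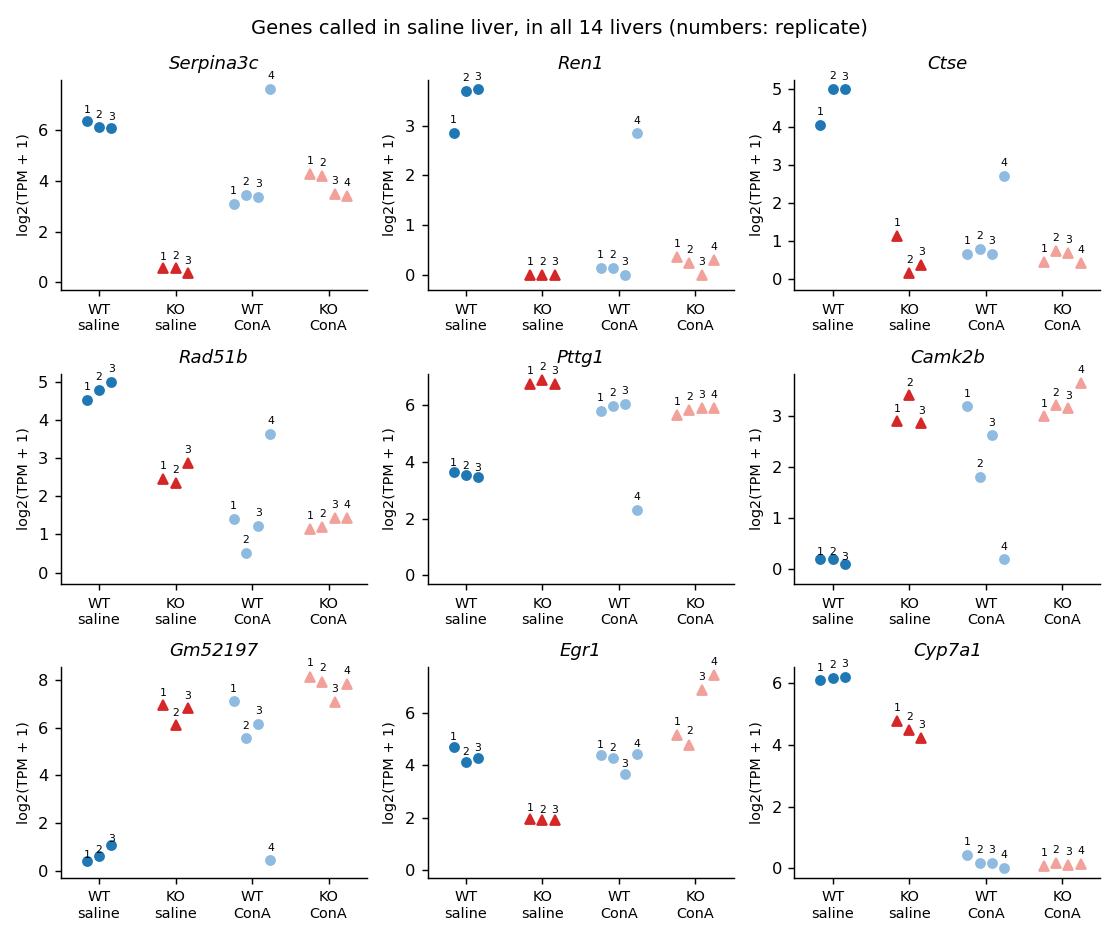
Expression as log2(TPM + 1) (vertical axes) of 9 genes picked from those called in saline liver, in each of the 14 livers, with circles for WT, triangles for KO and the replicate number beside each point. For Serpina3c, Ren1, Ctse, Rad51b, Pttg1, Camk2b and Gm52197, WT ConA replicate 4 sits at the side of WT saline. Replicates 1 to 3 sit nearer to the KO ConA mice than replicate 4 does. Egr1 lacks this split, and Cyp7a1 is too low in all ConA livers to show one.

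Other called genes lacked that split. Egr1, lower in KO saline, had 19.9, 18.3, 11.5 and 20.4 TPM in WT ConA and 34.3, 26.6, 117 and 175 in KO ConA, so that the order of the genotypes was the opposite of that in saline liver. The interaction, which tests whether the genotype difference itself differed between treatments, was 4.42 for Egr1 (limma adjusted p 0.0354). Over all genes, 28 of 11327 passed this test (0.247%). The 55 called genes were chosen by saline values that also enter it, which favours them beside that share, and 11 of them passed. That count was 31 without WT ConA replicate 4, 7 without WT ConA replicate 1, 6 without KO ConA replicate 3 or 4, 3 without KO saline replicate 2 or 3 and 2 without KO saline replicate 1. Cyp7a1 spanned 0.02 to 0.34 TPM in WT mice given ConA and 0.06 to 0.12 in such KO mice. Both genotypes were thus near 0 after ConA, too low for that split to show. The interaction for Cyp7a1 was 1.57 (limma adjusted p 0.0135). Serpina3m (2.19, 0.00633) and Serpina3n (1.61, 0.00524) were lower in KO saline, and after ConA their 4 KO livers were above the 4 WT livers, at 1708 to 1875 against 744 to 1535 TPM and at 7412 to 9300.0 against 6071 to 6771 TPM. Sult2a4, in contrast, had 7.37, 3.09, 0 and 0.09 TPM in WT ConA and 13.2, 12.8, 33.8 and 24.99 in KO ConA, and Sult2a6 had 7.28, 1.82, 0 and 0.08 in WT and 7.43, 12.1, 33.5 and 21.3 in KO. For Sult2a4 and Sult2a6 all KO ConA livers were above all WT ConA livers, with limma adjusted p of 0.0651 and 0.0669 after ConA. Because sharing of reads between these paralogs was not tested, they do not count as separate recurrences.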

How the data were processed

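Liver RNA-seq of 3 WT and 3 Ythdf1-/- saline mice was compared, with 4 WT and 4 Ythdf1-/- ConA mice as a second set. The deposited TPM values were made by the authors from single-end reads of 50 bases. Per the labels, the tools were Bowtie2 and RSEM 1.3.1 with build GRCm38.p6, while the methods name another aligner, a read counter and edgeR. Only TPM of 17656 genes per library was used, so depth and counting error are unknown. Values were set to log2(TPM + 1), genes at TPM of 1 or more in 3 of 6 libraries were kept, and limma 3.58.1 (R 4.3.3) with a mean-variance trend and Benjamini-Hochberg adjustment over all tested genes gave p-values. WT saline replicates 2 and 3 entered as 1 mean. ConA mice and the interaction were fitted in the same way. Named genes were the 12 largest rises and falls without overlap, up to 3 list members without overlap, the m6A regulators and the 5 genes on each side of Ythdf1. Genes of the Serpina1, Serpina3 and Sult2a families and a few others were added after their values were seen. Members and lists were chosen with earlier results of these data known. Promoters came from RefSeq on GRCm38.p6 and were aligned with Biopython 1.88. Nothing in the labels says how libraries of a group were kept apart beyond their numbers, so p-values measure the spread between these samples. Alternatives tried were separate WT libraries, a replicate block, another pseudocount, other filters, rescaling, a GC and length correction for 96.6% of genes, all groups in 1 fit, a robust fit and leaving out each replicate.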

Additional observations from a re-analysis of the deposited data

Results flagged for a closer look

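In 10 of 121 groups of 4 ConA libraries that were examined for called genes and m6A regulators, 1 library lay far from the other 3 by Dixon's criterion, where chance gives about 1 in 20 groups. WT ConA replicate 4 was that library in 6 of them, with 5.51 TPM of Ctse, 1.04 of Gm42048, 3.96 of Pttg1, 6.17 of Ren1, 192 of Serpina3c and 127 of Serpina3i. The other 3 WT ConA libraries had 15.4, 17.8 and 16.7 TPM of Serpina3i. WT ConA replicate 3 stood apart for Tmem255a (2.36 TPM) and Ythdf2 (6.01 TPM), KO ConA replicate 3 for Ythdc1 (17.5 TPM) and KO ConA replicate 4 for Eaf2 (83.97 TPM).

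For 11 genes called in saline liver, the genotype difference itself differed between saline and ConA by the interaction test of limma. They were chosen by saline values that also enter this test. That choice favours passing it with a sign opposite to the saline difference. The ConA difference minus the saline difference on the log2 scale was 4.42 for Egr1, 2.73 for Prelid2, 2.19 for Serpina3m, 1.61 for Serpina3n, 1.57 for Cyp7a1, 1.45 for Foxa3 and 1.42 for Rnaset2b, all lower in KO saline liver. It was -2.62 for D17H6S56E-5, -2.34 for Gm46620, -1.49 for Acot11 and -1.36 for Sco2, all higher in KO saline liver. The adjusted p ran from 0.00524 for Serpina3n to 0.046 for Prelid2 among the genes that fell.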

How the results depend on the processing

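The 55 calls of the saline comparison were 2009 with 3 separate WT libraries, 2423 with a replicate block (831 higher and 1592 lower) and 30 without the TPM filter, and 39 to 66 when each replicate was left out. The replicate numbers are not known to pair the mice, since deviations of same-numbered libraries correlated at 0.344, 0.236 and -0.002, and not every library correlated best with its own number. With a pseudocount of 0.1, a TPM filter at 5, rescaling, the GC and length correction, a robust fit or a fold limit the count was 46 to 73. All 4 groups in 1 fit also gave 55 calls, of which 21 were shared. Over called genes and alternatives, 640 calls were kept, 176 were lost and 0 changed direction. Of the saline calls, 1 was called the same way after ConA, and 10 with separate WT libraries, 2 with a TPM filter at 5 or the GC and length correction, 0 with a pseudocount of 0.1 or without the filter, and 0 to 5 when each replicate was left out. The 11 interaction calls were 359 with separate WT libraries, 4 without the filter, 3 after rescaling and 2 to 31 when each replicate was left out. The cause of these shifts was not tested. Without WT saline replicate 1, the WT mean of replicates 2 and 3 was the only WT value and was assumed to vary like the KO libraries.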

Other observations

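Over the 9823 genes tested in both treatments, 136 had KO and WT livers apart in the same direction in saline and after ConA, 68 higher and 68 lower, and 270 were apart in opposite directions. Of the genes tested in saline liver, 13.0% were apart higher and 29.2% lower, and of those tested after ConA, 6.37% and 4.11%. Agreement was thus rarer than disagreement, so the genes below do not show that saline differences recurred in general. The genes named here were chosen after their values were seen, and none was called in saline liver. C8a and C8b encode parts of the terminal complement complex. C8a had 216, 106 and 102 TPM in WT and 70.7, 49.9 and 59.9 TPM in KO saline liver, and 67.5 to 147 TPM in the WT group and 22.1 to 63.8 in the KO group after ConA. C8b had 166, 110.2 and 110.0 in WT and 79.6, 46.7 and 69.8 in KO in saline liver, and 80.9 to 103 and 39.98 to 63.1 after ConA. Entpd4b, a nucleotidase, had 24.6, 21.9 and 21.2 TPM in WT and 11.5, 11.4 and 14.1 TPM in KO saline liver, and 19.6, 27.03, 25.3 and 18.6 in WT and 11.3, 10.6, 9.05 and 10.9 in KO after ConA, where its limma adjusted p was 0.0369 (saline 0.0619). Mup20, a major urinary protein, had 439, 340.4 and 355 in WT and 199, 152 and 299.9 in KO in saline liver and a log2 fold change of -1.59 after ConA (adjusted p 0.0369, saline 0.124).

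On the higher side, Actb, which encodes beta-actin, had 235, 234 and 239.8 TPM in WT and 389, 364 and 362 TPM in KO saline liver, and 850.1 to 960.0 in WT and 1205 to 1909 in KO after ConA. Anxa2, a calcium-dependent membrane binder, had 6.26, 3.44 and 3.09 in WT and 11.2, 7.31 and 10.5 in KO in saline liver, with a log2 fold change of 1.28 after ConA (limma adjusted p 0.035, saline 0.114). Plcd3, a phospholipase C, had 0.24, 0.44 and 0.16 in WT and 1.69, 1.06 and 1.80 in KO in saline liver and 0.27, 0.35, 0.14 and 0.23 and 2.26, 1.51, 1.02 and 2.19 after ConA (adjusted p 0.0369 after ConA, 0.0695 in saline liver). Tymp, thymidine phosphorylase, had 2.86 to 6.56 TPM in the WT group and 8.51 to 13.7 in the KO group after ConA, with a saline adjusted p of 0.0682. Ccl21a, a chemokine of lymphatic vessels, had 0.70, 1.77 and 1.90 TPM in WT and 8.77, 10.1 and 5.10 in KO saline liver and a log2 fold change of 1.20 after ConA (adjusted p 0.0497).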
